A study of Mus musculus with 2 samples.

Results

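The 9 genes described here encode the surfactant proteins of the lung and the proteins that process, load or carry surfactant in lamellar bodies, the storage organelles of alveolar type II cells. They were chosen by symbol, as Sftpa1, Sftpb, Sftpc, Sftpd, Abca3, Napsa, Lamp3, Lpcat1 and Slc34a2. All 9 were found among the 41709 genes of the deposited tables, and 8 of them reached 50 reads in at least 1 library, the minimum for a gene to be called measured. Polyadenylated RNA of whole lung from C57BL/6 mouse embryos at E14.5 was sequenced in 2 libraries, 1 labelled Prmt5 knockdown, whose title names Shh and Prmt5, and 1 labelled control and described as wild type. Each library came from 7 pooled lungs, and the labels do not say by which allele, driver or cell type Prmt5 was lowered. The study asks what lowering Prmt5, an arginine methyltransferase that modifies histones, does to gene expression in the branching lung.

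Surfactant is a film of phospholipid and protein that lowers surface tension in the air spaces. Its lipids and the hydrophobic proteins SP-B and SP-C are packed in lamellar bodies and secreted together, whereas the collectins SP-A and SP-D bind microbes. At the branching stage the distal epithelial tips already transcribe Sftpc, and most of the other genes of the system become abundant later in gestation. Several of these genes are also used outside the lung, such as Napsa in kidney, Slc34a2 in intestine and, in human, Lamp3 in mature dendritic cells.

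The knockdown library held 25829281 counted reads and the control library 22581490. Prmt5 itself had 2127 reads in the knockdown library and 2704 in the control library, or 1.35-fold lower, short of the rule of size given below. Shh had 109 reads in the knockdown library and 1124 in the control library. Markers of other organs were far higher in the knockdown library: the 11 liver genes summed to 12367 CPM there (counts scaled to library size) and 91.9 CPM in the control library, the 10 heart genes to 6750 CPM in the knockdown library and 216 CPM in the control library, and the 10 red blood cell genes to 36985 CPM in the knockdown library and 9726 CPM in the control library. In the same library 14 of the 17 measured markers of epithelium in general were lower, with a median log2 ratio of -1.46, beside 12.3% lower of all measured genes. The other 3, all keratins, did not pass that rule. The part of these markers and of those of other organs in the values below was not tested, unless a value is given. In whole lung, fewer cells of a type and less RNA per cell cannot be told apart. All ratios are knockdown over control, with a 95% interval for counting error only, since each genotype has 1 library and no replicate. No p-value can be given.

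The 9 genes did not move together. Sftpc, Lamp3, Sftpa1 and Sftpb were lower in the knockdown library, and Abca3, Napsa and Slc34a2 were higher. These 7 passed the rule of size, which asks for a ratio of at least 1.5 or its inverse with an interval that excludes 1. Lpcat1 did not pass it, and Sftpd was too low to be measured. Across all 14569 measured genes 33.0% passed the rule, 20.7% as higher and 12.3% as lower, against 3 higher and 4 lower of the 8 measured members. The median log2 ratio of the members was -0.31, beside -0.01 over all measured genes. The mean over the members was -0.08. Both lie between the lower and the higher members and describe neither.

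**Figure D1:**
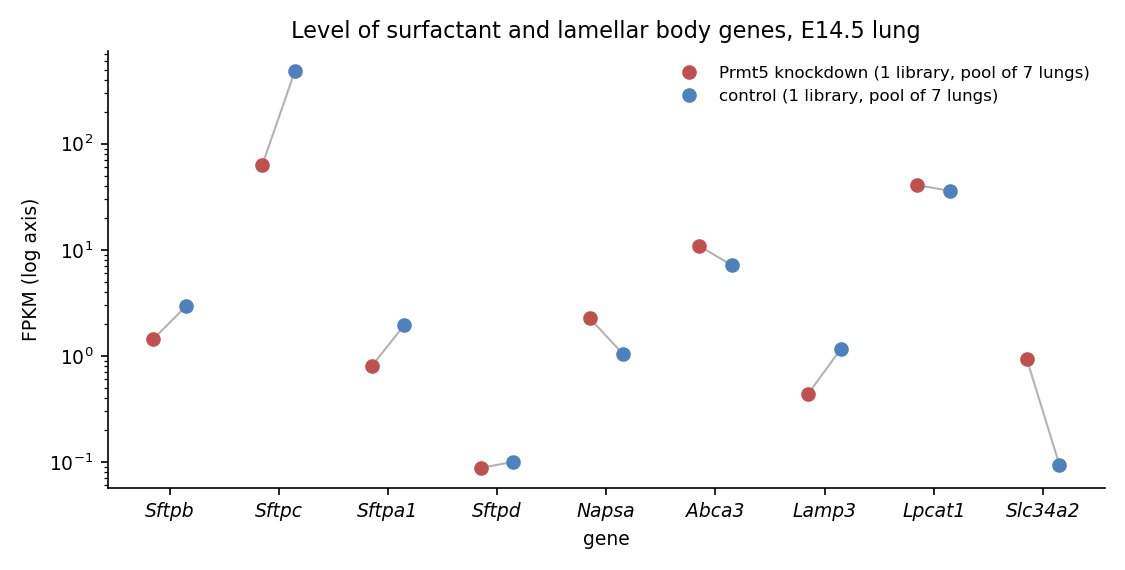
Level of each gene as FPKM on a log axis in the Prmt5 knockdown library (red) and the control library (blue), 1 point per library, joined by a grey line. Sftpc stands far above the other genes in the control library (489 FPKM), whereas in the knockdown library Sftpc (63.2 FPKM) lies near Lpcat1 (40.7 FPKM).

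Of the hydrophobic surfactant proteins, Sftpc was abundant and Sftpb scarce. Sftpc (NCBI gene 20389, chromosome 14, 70520941 to 70524081 on GRCm38, minus strand) encodes SP-C, a very short membrane peptide cut from a larger precursor. It had 1313 reads in the knockdown library and 8880 in the control library, or 63.2 FPKM in the knockdown library and 489 FPKM in the control library. That was 7.17-fold lower (log2 -2.84, interval -2.93 to -2.76). By FPKM it ranked 1281 among the measured genes of the knockdown library and 130 in the control library. In both libraries Sftpc stood above the median measured gene, which had 8.92 FPKM in the knockdown library and 9.02 FPKM in the control library.

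Sftpb (NCBI gene 20388, chromosome 6, 72304610 to 72314373, plus strand) encodes SP-B, the saposin-like protein without which lamellar bodies do not form properly. It had 113 reads in the knockdown library and 202 in the control library, a log2 ratio of -0.92 (-1.27 to -0.58). Its level was low in both, at 1.43 FPKM in the knockdown library and 2.93 FPKM in the control library. The difference between the log2 ratios of Sftpb and Sftpc was 1.92 (1.58 to 2.26), so the hydrophobic pair was lower by clearly different amounts. The authors' length for Sftpb was 1.55 times the union of its annotated exons, so its FPKM would be higher with the annotated length. For other members the authors' length was shorter than that union, so their FPKM would be lower. It was 0.78 times the union for Sftpc, 0.85 for Slc34a2, 0.67 for Abca3, 0.58 for Lpcat1, 0.56 for Napsa and 0.55 for Sftpd. For Sftpa1 (0.97) and Lamp3 (0.996) the authors' length was close to the union. Ratios between the libraries do not depend on these lengths.

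The collectins were scarce. Sftpa1 (NCBI gene 20387, chromosome 14, 41131788 to 41136373, plus strand) encodes SP-A, which binds microbes and surfactant lipid. Its reads numbered 57 in the knockdown library and 122 in the control library, which was 2.26-fold lower (log2 -1.17, -1.66 to -0.72). Sftpd (NCBI gene 20390, chromosome 14, 41172212 to 41185198, minus strand) encodes SP-D and lies beside Sftpa1, with the mannose-binding lectin gene Mbl1 between them. It had 3 reads in each library. That is no more than the floor of 3 reads used here, so no ratio is given and a difference was not detectable at this depth.

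The protease and the transporters went the other way. Napsa (NCBI gene 16541, chromosome 7, 44572445 to 44586846, plus strand) encodes napsin A, an aspartic protease that helps to cut the SP-B precursor. It had 86 reads in the knockdown library and 35 in the control library, 2.30-fold higher (log2 1.20, 0.63 to 1.82). An antisense gene, Gm15396, overlaps Napsa in the annotation, and the strand setting of the counting is not given in the sources used here, so antisense reads cannot be told apart from Napsa reads. Of the 8 kidney markers, Slc34a1, Umod and Slc22a6 had 0 reads in both libraries. The others summed to 2024 reads in the knockdown library and 913 in the control library. Wt1 gave 1389 of these in the knockdown library and 600 in the control library, and Lrp2 gave 481 and 217 in that order. In whole lung these reads cannot be assigned to kidney cells. Pax2 went the other way, with 2 reads in the knockdown library and 14 in the control library, and Pax8 had 1 in each. The part of kidney cells in the Napsa value was not tested.

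Abca3 (NCBI gene 27410, chromosome 17, 24351921 to 24410204, plus strand) encodes the transporter that moves phospholipid into lamellar bodies. Its reads came to 1773 in the knockdown library and 1019 in the control library, 1.64-fold higher (log2 0.71, 0.60 to 0.83). Its level was 10.9 FPKM in the knockdown library and 7.15 FPKM in the control library, near the median measured gene. With deposited FPKM and a pseudocount of 1 the log2 ratio was 0.54, under the rule. The antisense gene D330041H03Rik overlaps its far end and had 46 reads in the knockdown library and 40 in the control library.

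Slc34a2 (NCBI gene 20531, chromosome 5, 53049353 to 53071664, plus strand) encodes the sodium-phosphate carrier of the type II cell surface. It had 103 reads in the knockdown library and 9 in the control library, 10.3-fold higher with a wide interval (log2 3.36, 2.45 to 4.60). Its level was still low, at 0.938 FPKM in the knockdown library and 0.0938 FPKM in the control library. On the log2 scale of FPKM plus a pseudocount the difference was 2.42 with a pseudocount of 0.1 and 0.83 with a pseudocount of 1, which understates low genes. The related carriers Slc34a1, of kidney, and Slc34a3 had 0 reads in both libraries. Of the 8 intestine and stomach markers, Cdx2 and Gkn1 had 0 reads in both libraries, and the list summed to 815 reads in the knockdown library (673 from the stomach mesenchyme gene Barx1) and 135 in the control library (56 from Barx1). Of the intestinal epithelial genes, Fabp2 had 39 reads in the knockdown library and 1 in the control library. Vil1 had 21 in the knockdown library and 7 in the control library, and Cdx1 had 5 and 4 in that order. Fabp2, Vil1 and Cdx1 stayed under 50 reads. Lgals4, which was measured, had 76 reads in the knockdown library and 67 in the control library. Its log2 ratio of 0.10 (-0.40 to 0.59) did not pass the rule. The part of these genes in the Slc34a2 value was not tested.

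Lamp3 and Lpcat1 complete the set. Lamp3 (NCBI gene 239739, chromosome 16, 19653381 to 19706365, minus strand) encodes a glycoprotein of the lamellar body membrane. It had 38 reads in the knockdown library and 88 in the control library, 2.44-fold lower (log2 -1.28, -1.88 to -0.73). With FPKM plus a pseudocount of 1 this was -0.59. Dendritic cell markers were sparse: 3 of 8 reached 50 reads, and the list summed to 10618 reads in the knockdown library and 15570 in the control library. Most of these came from Fscn1, an actin-bundling protein of many cells, with 9797 reads in the knockdown library and 14789 in the control library. Fscn1 was the only marker of this list past the rule, as lower (log2 -0.68). The markers went both ways. Ccr7, a marker of mature dendritic cells, had 19 reads in the knockdown library and 4 in the control library. Flt3 had 34 in the knockdown library and 2 in the control library, and Itgax had 11 and 5 in that order. Cd83 had 179 reads in the knockdown library and 244 in the control library (log2 -0.53), under the rule. Clec9a had 26 in the knockdown library and 37 in the control library, and Zbtb46 had 551 and 489 in that order. Their part in the Lamp3 value was not tested. Xcr1 had 1 read in the knockdown library and 0 in the control library. Ccr7, Flt3, Itgax, Clec9a and Xcr1 stayed under 50 reads and were not measured. Lpcat1 (NCBI gene 210992, chromosome 13, 73467231 to 73516420, plus strand) encodes the acyltransferase that remodels phosphatidylcholine towards the saturated form of surfactant. It had 2825 reads in the knockdown library and 2174 in the control library, a log2 ratio of 0.29 (0.21 to 0.38), under the rule. Its level of 40.7 FPKM in the knockdown library and 35.8 FPKM in the control library came next after Sftpc among the members.

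**Figure D2:**
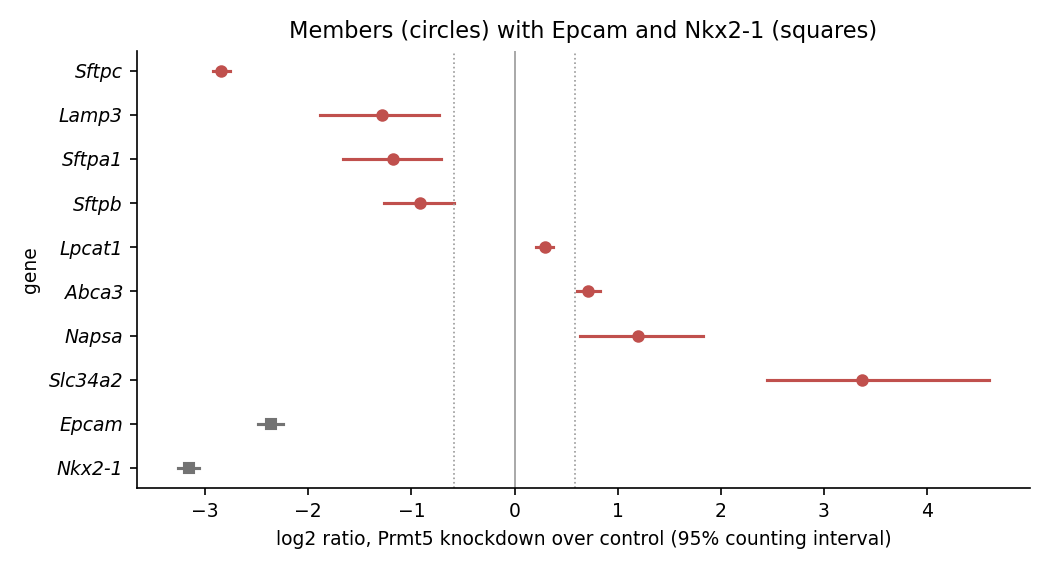
Log2 ratio of knockdown over control for the 8 measured members (circles) and for the epithelial genes Epcam and Nkx2-1 (squares), with 95% counting intervals as bars. Dotted lines mark a ratio of 1.5 and its inverse. The members run from Sftpc (-2.84) to Slc34a2 (3.36).

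Because the members split, the make-up of their reads differed between the libraries, a comparison that needs no scaling. The 9 genes took 6311 reads, or 0.0244% of all reads, in the knockdown library and 12532 reads, or 0.0555%, in the control library. Sftpc held 20.8% of these member reads in the knockdown library (exact Clopper-Pearson interval 19.8% to 21.8%) and 70.9% in the control library (70.1% to 71.7%). Lpcat1 held 44.8% in the knockdown library, the largest part there, and 17.3% in the control library. Abca3 held 28.1% in the knockdown library and 8.13% in the control library. Without Sftpc the other 8 genes summed to 4998 reads in the knockdown library and 3652 in the control library, a log2 ratio of 0.37 (0.31 to 0.43). The sum over all 9 had a log2 ratio of -1.07 (-1.12 to -1.03), so its direction rests on Sftpc.

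**Figure D3:**
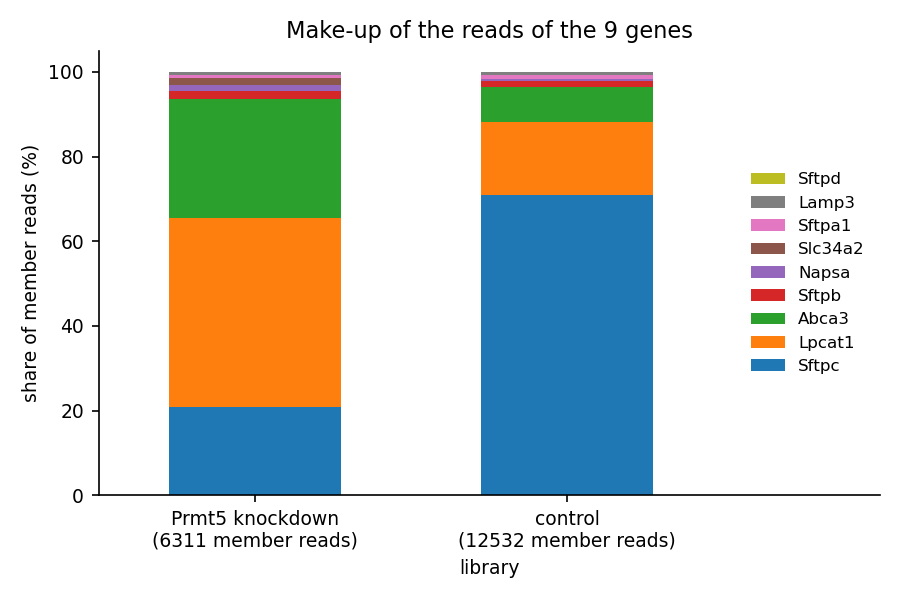
Share of the reads of the 9 genes that each gene took, as stacked bars in percent, for the Prmt5 knockdown library and the control library. Sftpc fills 20.8% of the knockdown bar and 70.9% of the control bar.

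Set against epithelial genes of the same library, the lower members no longer lined up. Epcam, an adhesion protein of epithelial cells, had 689 reads in the knockdown library and 3348 in the control library (log2 -2.36), and Nkx2-1, the lineage factor of lung epithelium, had 895 reads in the knockdown library and 7550 in the control library (log2 -3.16). For every 100 Epcam reads there were 191 Sftpc reads in the knockdown library and 265 in the control library, a difference of log2 ratios of -0.48 (-0.62 to -0.33). Per 100 Nkx2-1 reads Sftpc had 147 in the knockdown library and 118 in the control library, a difference of 0.32 (0.19 to 0.45). The sign for Sftpc therefore depends on which of these genes is the yardstick. Sftpb had 16.4 reads per 100 Epcam reads in the knockdown library and 6.03 in the control library, Sftpa1 had 8.27 in the knockdown library and 3.64 in the control library, and Lamp3 had 5.52 in the knockdown library and 2.63 in the control library. Relative to Epcam these 3 genes were thus higher, although they were lower per library. Epcam, however, had the lowest log2 ratio of the 17 measured markers of epithelium, and Nkx2-1 lay lower still. The markers ran up to Krt19 (0.21), with Cdh1 at -0.92 and Krt8 at -0.12. Sftpa1 (-1.17, -1.66 to -0.72) and Lamp3 (-1.28, -1.88 to -0.73) lay between the median of these markers (-1.46) and Cdh1. Both intervals held both of those values, so this order is within counting error. Sftpb (-0.92, -1.27 to -0.58) was level with Cdh1. The intervals of Sftpa1, Lamp3 and Sftpb all lay below the value of Krt8. The sign for these 3 genes therefore also depends on the marker chosen.

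Pairs of members showed which values were alike within counting error. The intervals of the differences between Sftpa1 and Sftpb (-0.26, -0.82 to 0.30), Lamp3 and Sftpa1 (-0.11, -0.83 to 0.60) and Lamp3 and Sftpb (-0.37, -1.02 to 0.27) all included 0. Abca3 and Napsa likewise differed by -0.50 (-1.08 to 0.08). Sftpc stood apart from each of the other lower members, the nearest being Lamp3 (Lamp3 minus Sftpc was 1.55, with an interval that excluded 0). Among the higher members Slc34a2 exceeded Abca3 by an interval that excluded 0 (Abca3 minus Slc34a2 was -2.72, -3.71 to -1.73). In the pair of CPM values Sftpc was most like Tbx4, Etv5 and Nkx2-1, at distances of 0.58, 0.59 and 0.60 on the log2 scale, over only 2 libraries.

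Promoter sequence is a property on which the choice of genes did not draw. RefSeq starts on GRCm38.p6 were at hand for 6 of the 9 genes: Sftpa1, Sftpb, Lamp3, Abca3, Lpcat1 and Slc34a2. The 250 bases before the start are shown for the 3 lower genes among them and for Slc34a2, the member with the highest ratio, so that their base composition can be compared. They lie at chr6:72304360-72304609 (Sftpb, plus strand), chr14:41131538-41131787 (Sftpa1, plus strand), chr16:19706366-19706615 (Lamp3, minus strand) and chr5:53049103-53049352 (Slc34a2, plus strand). Capitals mark CAAG on either strand, the core that NKX2-1 binds, and each is written from 5′ to 3′.
Sftpb: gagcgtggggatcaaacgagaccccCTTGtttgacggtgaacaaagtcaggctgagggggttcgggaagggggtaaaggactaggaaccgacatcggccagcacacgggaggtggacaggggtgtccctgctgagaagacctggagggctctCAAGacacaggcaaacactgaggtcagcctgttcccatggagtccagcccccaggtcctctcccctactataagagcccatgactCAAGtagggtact
Sftpa1: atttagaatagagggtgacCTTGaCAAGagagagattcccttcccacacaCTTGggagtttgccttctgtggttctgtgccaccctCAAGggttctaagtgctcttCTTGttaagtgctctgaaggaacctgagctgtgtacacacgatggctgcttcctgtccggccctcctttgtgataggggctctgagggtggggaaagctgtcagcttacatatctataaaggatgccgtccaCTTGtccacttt
Lamp3: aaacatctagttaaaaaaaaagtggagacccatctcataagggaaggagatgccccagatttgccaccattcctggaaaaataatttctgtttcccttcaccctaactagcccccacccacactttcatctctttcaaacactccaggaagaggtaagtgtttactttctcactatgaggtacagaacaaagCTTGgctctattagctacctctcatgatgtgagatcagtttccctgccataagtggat
Slc34a2: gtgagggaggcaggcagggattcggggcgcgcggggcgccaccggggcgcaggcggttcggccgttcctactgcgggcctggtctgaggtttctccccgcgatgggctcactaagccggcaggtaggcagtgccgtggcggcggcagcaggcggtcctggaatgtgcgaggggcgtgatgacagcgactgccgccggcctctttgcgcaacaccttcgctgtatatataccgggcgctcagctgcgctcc

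CAAG occurred 6 times before Sftpa1, 3 times before Sftpb, 2 times before Abca3 and 1 time before Lamp3, and these letters were not in the windows of Slc34a2 and Lpcat1. The Abca3 window (chr17:24351773-24352022) runs past the gene start given above (24351921). Part of it therefore lies inside the gene, which also holds for its motif and CpG values. The core is common: 86.6% of 32817 mouse promoter windows of the same length held it, with a median of 2 per window. The longer CTCAAG, which contains the core, was in the Sftpb and Sftpa1 windows and in 13.3% of all windows. The forkhead motif TGTTTNC was in the Sftpb and Lamp3 windows and in 17.8% of all, and TATAAA in that of Sftpa1 and in 12.4% of all. The GC box GGGCGG was in the windows of Abca3 and Lpcat1 and in 32.7% of all. All motifs were searched on both strands. A match is a string of letters and not a bound site.

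The windows also differed in CpG content, given as the observed over the expected number of CG pairs. It was 0.19 for Sftpa1, 0.33 for Sftpb and 0 for Lamp3, all at or below the median of all windows (0.37). For Abca3 it was 0.74, for Lpcat1 0.70 and for Slc34a2 0.94. The 3 lower genes with a window thus lay below this median and the 3 others above it. Sftpb was close to the median, with 46.0% of windows at or below its value. Sftpc, the most reduced member, had no window, and Lpcat1, among the others, did not pass the rule. The grouping by CpG content was seen after the ratios were known, covers 6 genes and has no test.

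Of the nearest protein-coding neighbours, those past the rule went both ways. The liver genes Mat1a and Mbl1, on either side of Sftpa1, were higher, Mbl1 with 235 reads in the knockdown library and 2 in the control library, whereas Sftpa1 was lower. Next to Sftpc, Bmp1 was lower by less than Sftpc (log2 -0.76) and Lgi3 was lower as well (-1.92). Next to Sftpb, Usp39 had 26 reads in the knockdown library and 210 in the control library. Beside the higher members, Rnps1 next to Abca3 (-0.64) and Sel1l3 next to Slc34a2 (-1.15) were lower.

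Transcription factors known to control surfactant genes were split as well. Of 10 measured regulators 4 were lower and 1 higher, beside 12.3% lower and 20.7% higher of all measured genes. The regulators had a median log2 ratio of -0.30. Nkx2-1 (-3.16), the forkhead factors Foxa1 (-2.26) and Foxa2 (-2.18), and Etv5 (-2.07), an ETS factor induced by FGF signalling, were lower. Cebpa, a factor of lipid-handling cells that liver also expresses, had 2359 reads in the knockdown library and 1318 in the control library (0.76). Gata6, Nfib, Nr3c1, Klf5 and Wwtr1 did not pass the rule.

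In lipid synthesis 6 of 16 measured genes passed the rule and in organelle assembly 4 of 15, beside 33.0% of all measured genes, so neither share stands out. Of 16 measured lipid genes 5 were higher and 1 lower, with a median of 0.05. The fatty acid carrier Fabp5 (2.56), the desaturase Scd1 (2.03), Pcyt1b (1.51), a rate-setting enzyme of phosphatidylcholine synthesis, and Lpcat3 (0.72) were higher, and the choline kinase Chka (-0.68) was lower. The fatty acid synthase Fasn had 7908 reads in the knockdown library and 10699 in the control library (-0.52), under the rule. Of 15 genes of lamellar bodies and related lysosomes 2 were higher and 2 lower, with a median of 0.08. Ctsd (1.05) and Ctsh (0.72), lysosomal proteases of which cathepsin H also cuts SP-B and SP-C precursors, were higher. Rab38, a small GTPase of lysosome-related organelles, was lower (-0.65), as was the protease gene Pgc (39 reads in the knockdown library and 69 in the control library, -0.90). Of 4 measured genes of surfactant turnover Csf2rb (1.40), a receptor chain of macrophages, was higher and none lower, with a median of -0.13. With total-count scaling, which shifted the median of all genes by -0.11, the medians of the lipid and the lamellar body lists turned to -0.06 and -0.03.

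**Figure D4:**
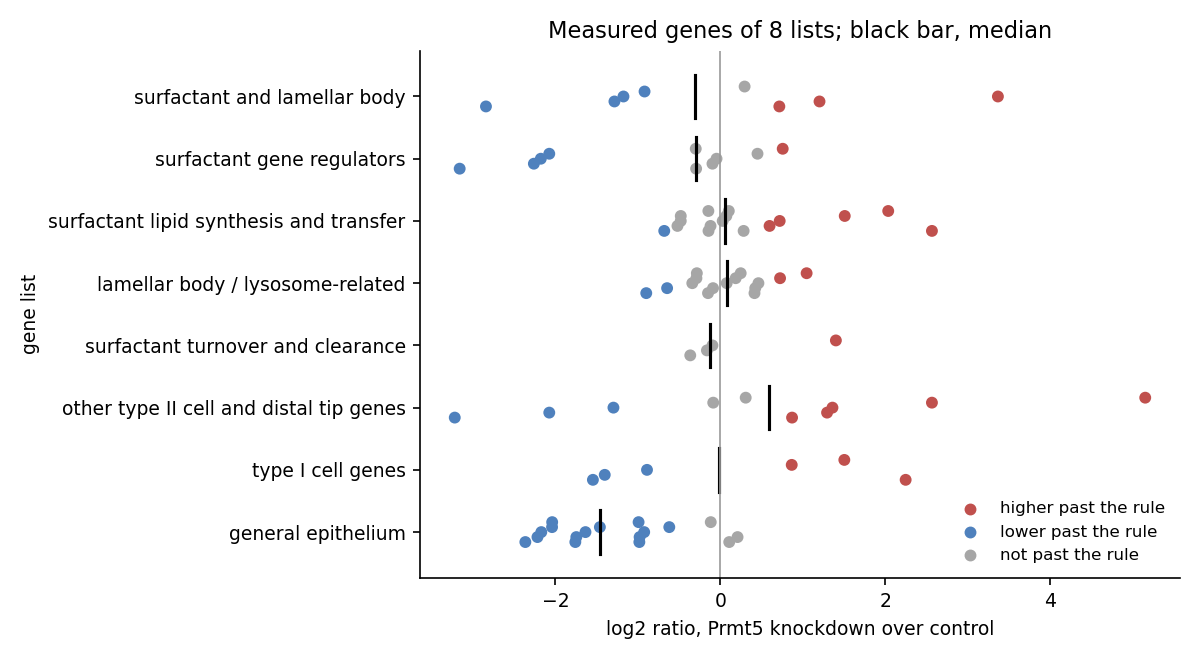
Log2 ratio of knockdown over control for each measured gene of 8 lists, 1 point per gene, coloured by the rule of size, with a black bar at the list median. The surfactant and lamellar body genes spread from -2.84 to 3.36, whereas the general epithelium genes lie at or below 0.21.

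Other genes used as markers of the distal epithelium also included both higher and lower genes. Of 10 measured type II cell and distal tip genes 5 were higher and 3 lower (median 0.59). Of all measured genes 20.7% were higher and 12.3% lower, for this list and those below. The mucin Muc1 (-3.22), Etv5 (-2.07) and the tip factor Sox9 (-1.30) were lower, and the chitinase-like Chil1 (93 reads in the knockdown library and 2 in the control library) and Fabp5 were higher. Lysozyme 2 (Lyz2), a type II cell gene that macrophages also use, was higher (1.29). Of 10 measured immune markers, a list that includes Lyz2 itself, 9 were higher in the same library. The 10 markers summed to 405 CPM in the knockdown library and 189 CPM in the control library. Lyz2 gave 2318 of the 10071 reads behind this sum in the knockdown library and 892 of 4437 in the control library. Of 6 measured type I cell genes 3 were higher, Hopx (2.25), Clic5 (0.86) and Ager (55 reads in the knockdown library and 18 in the control library), and 3 lower, Gprc5a (-1.55), Akap5 (-1.40) and Rtkn2 (-0.89). In whole lung these reads cannot be assigned to epithelial cells. The part of heart, liver and immune transcripts in the values of these lists was not tested.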

How the data were processed

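The authors' deposited files give raw counts of reads for each gene, together with FPKM (those counts divided by gene length and library total). The lengths that the deposited FPKM imply were whole numbers within 0.001 bp for 100% of 22831 genes with reads in both libraries, so FPKM adds only these lengths. Per the submitters' processing notes, the tools were TopHat2 2.0.12, Bowtie2 2.2.3 and HTSeq 0.6.1, with build mm10. Annotation and strand setting were not given in the sources used here. NCBI gene numbers were matched to symbols with RefSeq genes of GRCm38.p6, the assembly of mm10, for 40269 of 41709 entries. Entries without a number held 0.0748% of knockdown and 0.0783% of control reads.

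Counts were scaled in edgeR 4.0.16 (under R 4.3.3) by TMM, whose factor was 0.963 for the knockdown and 1.04 for the control library. Ratios used a prior count of 0.5. Their 95% intervals are exact Clopper-Pearson intervals of both counts given their sum, and differences between log2 ratios carry normal intervals on the log scale. Intervals and floors cover counting error only, and PCR copies are not independent molecules. Exon unions and neighbours came from GENCODE M21, and motifs were searched with Python 3.11.15. The functions were tested on simulated data.

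The members, lists and rule of size were chosen with earlier results of these data known. Named genes were all members, up to 4 genes per list past the rule ranked by the interval bound nearest to 1, up to 2 that went against the list median, relatives and nearest neighbours. A neighbour that this takes in is not reported here. Fasn, Sox9, Lyz2, Clic5, Rtkn2, Xcr1, Ccr7, Flt3, Fabp2, Vil1, Umod, Slc22a6, Cdx2, Tshr, Cdh1, Krt8, Krt19 and the regulators under the rule were named after their values were seen. So were Cd83, Clec9a, Itgax, Zbtb46, Lgals4, Cdx1, Pax2 and Pax8. The 5 thyroid markers summed to 107 reads in the knockdown and 90 in the control library, with Tg (55 in the knockdown and 13 in the control library) and Tshr (31 in the knockdown and 5 in the control library) higher and Hhex (20 in the knockdown and 71 in the control library) lower. The 8 skeletal muscle markers, all higher, summed to 25478 in the knockdown and 639 in the control library.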

Additional observations from a re-analysis of the deposited data

How the results depend on the processing

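Each genotype has 1 library, so no replicate could be left out and differences between pools are not known. No paired analysis was possible because each group has 1 library. The ratios were recomputed with total counts, DESeq2 1.42.0 size factors, FPKM with pseudocounts of 0.1 and 1, and a prior count of 2, and none of the 40 values of the 8 members changed sign. In 28 the value stayed within the main counting interval. A minimum of 200 reads left 1 higher and 2 lower members, since Sftpa1, Lamp3, Napsa and Slc34a2 were then not measured. A ratio of 2 left 2 higher and 3 lower. The mean over members was -0.081 in place of the median of -0.31. With total counts the medians of the lipid and lamellar body lists were -0.060 and -0.033. Depth limits Sftpd most, at 3 reads in each library.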

Other observations

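Relatives of the surfactant and lamellar body genes were also counted, and several were far higher in the knockdown library, which also carried liver and heart transcripts. Of all measured genes 20.7% were higher and 12.3% lower, for each family below. Of 4 measured collectins related to SP-A and SP-D, 3 were higher: Mbl1 (235 reads in the knockdown library and 2 in the control library), Colec11 (287 in the knockdown and 22 in the control library) and Colec10 (368 in the knockdown and 108 in the control library). Colec12, a membrane collectin, had 2991 reads in the knockdown library and 3660 in the control library and did not pass the rule. Summed over the 5 relatives, collectin reads numbered 3889 in the knockdown library and 3792 in the control library, most of them from Colec12 in both. Of 6 measured aspartic proteases related to napsin A, 4 were higher and 1 lower. Ctse (1263 reads in the knockdown library and 37 in the control library) and Ren1 (774 in the knockdown and 30 in the control library) were higher by much more than Napsa. Bace2 (1.56) and Ctsd (1.05) were higher too, Pgc (-0.90) was lower and Bace1 (-0.14) did not pass the rule. Of 5 measured BRICHOS proteins, the family of the SP-C precursor, Tnmd (2.26), Itm2a (1.71) and Itm2b (0.71) were higher and none lower, in contrast to Sftpc. Of 8 measured ABCA transporters related to Abca3, Abca8b (2.52) and Abca7 (0.97) were higher and none lower. These counts do not stand out beside the shares of all measured genes. The saposin precursor Psap, related to SP-B, had 12976 reads in the knockdown library and 8701 in the control library (log2 0.49) and did not pass the rule. Whether the liver and heart transcripts account for any of these values was not tested.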
